A study of Mus musculus with 24 samples.

Results

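The cytosolic ribosome of the mouse liver was followed through 79 genes that encode its proteins. The members were chosen by symbol (Rpl or Rps with a number and at most 1 letter and 1 further digit, or Rplp0, Rplp1 and Rplp2) and by a mean of at least 10 TPM (an abundance scaled to the library and corrected for transcript length) over all 24 libraries, with no use of any difference between groups. They make up 79 of 56941 genes in the count table, 48 of the large (60S) and 31 of the small (40S) subunit. The symbol rule alone matched 82 genes. Rpl3l, Rpl10l and Rpl39l fell below the TPM limit, at means of 0.1 to 0.2 TPM, and the member nearest to it was Rpl21 at 22.8 TPM.

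Liver polyA RNA was sequenced with a stranded kit from 8 groups of 3 libraries. WT are Bmal1+/+ and KO are Bmal1-/- mice, both bred from Bmal1+/- parents on a C57BL/6J background, so that KO lack Bmal1 in every tissue. F are Bmal1f/f mice without Cre, the control that the design names for LKO, which are Alb-Cre; Bmal1f/f mice. Alb-Cre acts in hepatocytes and leaves Bmal1 in the other cells of the liver. Each genotype was sampled at circadian times CT2 and CT14. No age or sex is given in the sources used here. The labels do not say that the libraries of a group came from separate animals, so the p-values cover no more than the variation among these libraries, which may be technical.

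Ribosomal protein genes are among the most highly transcribed genes of a cell, and their products are needed in matched amounts, since each ribosome carries nearly all of them once. Their mRNAs mostly begin with a run of pyrimidines, the 5′ terminal oligopyrimidine (TOP) tract, through which mTORC1 and the RNA-binding protein LARP1 control translation. In mouse liver, ribosome production follows a daily rhythm that depends on feeding and on the circadian clock, of which Bmal1 is a core transcription factor. Mammalian genomes also hold very many processed copies of these genes, which lack introns and keep almost the whole coding sequence.

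The libraries held 88995259 to 131544733 estimated counts each. Bmal1 lay at 16.6 to 19.3 TPM in WT and 15.2 to 16.6 TPM in F at CT2, against 4.15 to 5.08 TPM in KO and 3.67 to 5.59 TPM in LKO over both times. At CT14 the controls were themselves low, at 1.41 to 4.56 TPM in WT and 1.56 to 8.49 TPM in F, so there Bmal1 did not separate the genotypes. The hepatocyte gene Alb was abundant throughout, at 47424 to 88638 TPM in WT and F and 27327 to 42847 TPM in KO and LKO. KO and LKO libraries all lay below all WT and F libraries in this gene.

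Some libraries stood apart in ways the groups do not explain, while transcripts of spermatids followed genotype in WT, F and LKO. Ddx3y, a Y-linked gene, was at 1.37 TPM in F CT2 replicate 3, 3.19 in LKO CT2 replicate 3 and 3.50 in KO CT2 replicate 1. The other 21 lay at 8.85 to 17.8 TPM. Xist, an RNA of the inactive X chromosome, was at 0 TPM in F CT2 replicate 3 and LKO CT2 replicate 3. In KO CT2 replicate 1 Xist was at 0.003 TPM. Its highest value in any library was 0.037 TPM, in KO CT14 replicate 2. The reason for the low Ddx3y was not tested. Transcripts of spermatids summed to 16.0 to 68.1 TPM in F and 22.2 to 53.2 TPM in LKO, 0.45 to 1.94 TPM in WT, and to about 18.2 TPM in KO CT2 replicate 2 and KO CT14 replicate 1. Pancreatic transcripts reached 3522 TPM in F CT2 replicate 3 and 1016 TPM in F CT14 replicate 3.

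The 79 genes together made up 2.47% to 4.25% of all TPM in a library. Their mean levels summed to 33030 TPM, with a median of 344.2 TPM per gene, and 73 of the 79 lay over 100 TPM. The 5 most abundant were Rplp1 (1607 TPM), a protein of the acidic stalk that recruits translation factors; Rps14 (1090 TPM), of the platform of the small subunit; Rpl10 (987 TPM), which joins late and completes the peptidyl transferase centre; Rps2 (885 TPM), at the mRNA entry; and Rpl13a (883 TPM). These 5 held 16.5% of the summed level. The 5 lowest were Rpl21 (22.8 TPM), Rpl22l1 (32.5 TPM, a paralogue of Rpl22), Rps15a (46.7 TPM), Rpl7l1 (49.4 TPM, a paralogue of Rpl7) and Rps20 (60.4 TPM). The highest mean was 70.38 times the lowest. For Rpl21 most counts lay in copies of the gene, as described below.

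**Figure D1:**
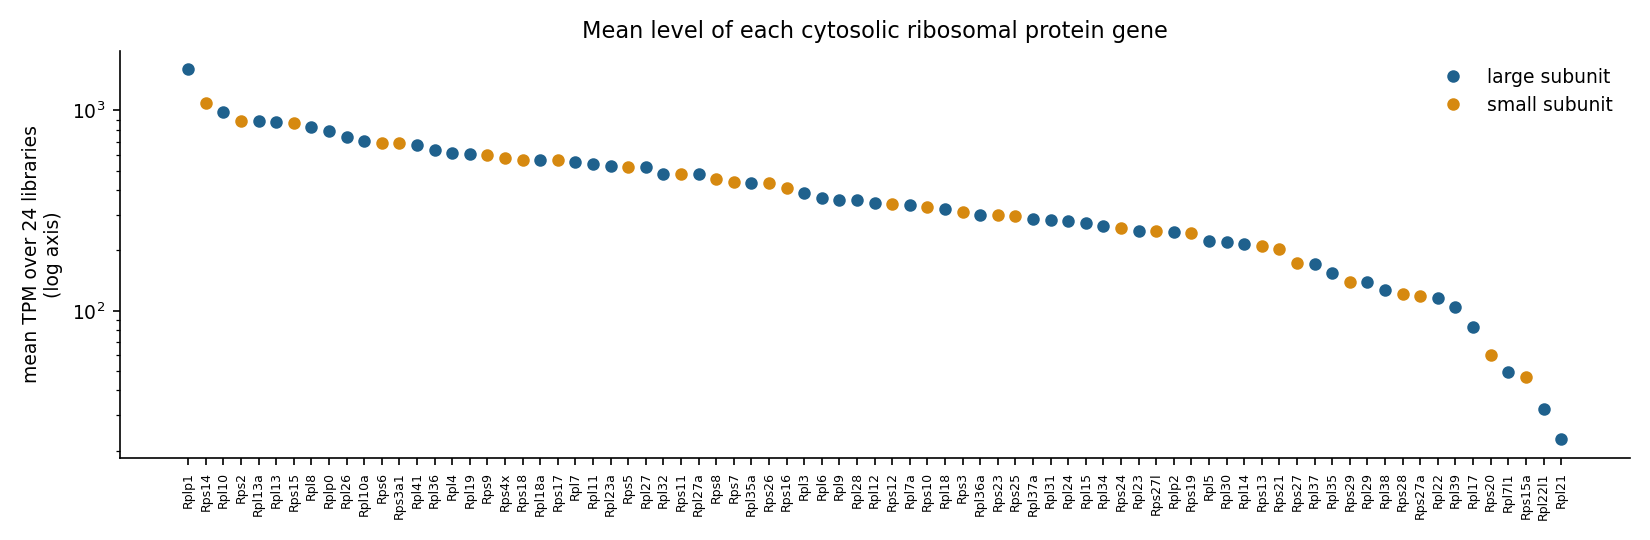
Mean TPM over 24 libraries (vertical log axis) of each of the 79 genes in descending order (horizontal axis), with colours for the large and the small subunit. The levels run from 1607 TPM for Rplp1 to 22.8 TPM for Rpl21, and genes of both subunits are spread over the whole range.

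The libraries differed sharply in which annotated copy of a gene received its counts, and this has to be shown before any comparison of genotypes. With blastn, 968 annotated genes matched the coding sequence of 75 members at 90% identity or more over at least 80% of its length; 109 of these copies, matched to 56 members, had a mean of 10 TPM or more. Rps18 and its copy Rps18-ps6 differ at 4 of 456 coding bases, Rps26 and Rps26-ps1 at 2 of 345, Rpl34 and Rpl34-ps1 at 2 of 351, and Rpl29 and its copy Gm13841 at 3 of 480. The stretches below, of 60 bases in the coding sense, show how little separates each gene from its copy; capitals mark the bases that differ. They were read from GENCODE transcripts and positions count from the first base of the start codon, bases 324 to 383 in Rps18, 240 to 299 in Rps26, 102 to 161 in Rpl34 and 42 to 101 in Rpl29.
Rps18: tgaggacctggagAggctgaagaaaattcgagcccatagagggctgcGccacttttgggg
Rps18-ps6: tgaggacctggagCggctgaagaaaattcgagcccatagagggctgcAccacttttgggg
Rps26: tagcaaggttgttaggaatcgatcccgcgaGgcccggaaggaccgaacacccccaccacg
Rps26-ps1: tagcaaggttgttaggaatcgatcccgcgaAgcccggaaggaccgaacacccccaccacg
Rpl34: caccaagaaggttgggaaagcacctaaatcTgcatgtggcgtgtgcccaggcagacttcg
Rpl34-ps1: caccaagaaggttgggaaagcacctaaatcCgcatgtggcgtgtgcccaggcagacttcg
Rpl29: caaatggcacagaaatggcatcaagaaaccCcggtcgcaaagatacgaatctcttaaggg
Gm13841: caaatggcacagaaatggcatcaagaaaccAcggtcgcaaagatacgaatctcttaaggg

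For Rps18, a protein of the head of the small subunit, the gene itself held 5.25% to 6.55% of the counts of gene and copies in 6 libraries, 47.2% to 52.9% in 5 and 97.4% to 98.2% in 13. The share thus fell at a few separate levels with nothing between them. All 6 libraries at the low level were WT or KO, and 11 of the 13 at the high level were F or LKO. In CPM (counts scaled to library size, after TMM scaling between libraries) Rps18 read 249, 14.7 and 15.5 in the 3 WT libraries at CT2. With the counts of the copies added the same libraries read 254, 279 and 248 CPM.

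Rps26, which lines the mRNA exit channel, showed the same kind of steps, the widest of them in F and LKO. Its share was 1.79% and 1.75% in F CT2 replicates 1 and 3, 48.3% to 50.1% in 4 further F and LKO libraries, and 98.1% to 99.1% in 16. The other two were WT CT2 replicate 2 at 78.5% and WT CT14 replicate 3 at 77.9%. The gene itself read 3.99, 199 and 4.78 CPM in F at CT2, and with copies 223, 202 and 274 CPM.

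Rpl34 held 2.32% to 4.0% of its counts in 6 libraries, all WT or KO, 41.5% to 46.0% in 7 and 84.5% to 90.1% in 11. Rpl29, a small surface protein of the large subunit, held 0.536% to 0.758% in 7 libraries, all WT or KO, 27.4% to 32.5% in 7, and 65.7% to 78.2% in 10, all F or LKO. The 3 KO libraries at CT14 read 1.26, 0.80 and 1.18 CPM for Rpl29, and with copies 167, 149 and 174 CPM. The 24 libraries together lay between 129 and 211 CPM once the copies were added.

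Such steps were widespread but not general. Of the 79 genes, 13 held less than 50% of their counts in some libraries and more than 50% in others, and 7 held under 10% in at least 1 library. The SD between replicates of a group exceeded 0.5 on the log2 scale in 10 genes, and in 0 of the 79 once the counts of the copies were added. It was 1.95 for Rpl29 and 0.10 with copies, 1.68 and 0.22 for Rpl34, 1.37 and 0.19 for Rps18, 1.31 and 0.17 for Rps2, 1.18 and 0.15 for Rps26, and 0.89 and 0.23 for Rpl26. With copies the largest was 0.47, for Rpl22l1. Copies held 15.02% to 27.2% of the TPM of genes and copies together in a library. A fold change of such a gene between genotypes is therefore given with the copies added beside its own value, and the gene's own value is uncertain. What placed the counts at these levels was not tested.

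**Figure D2:**
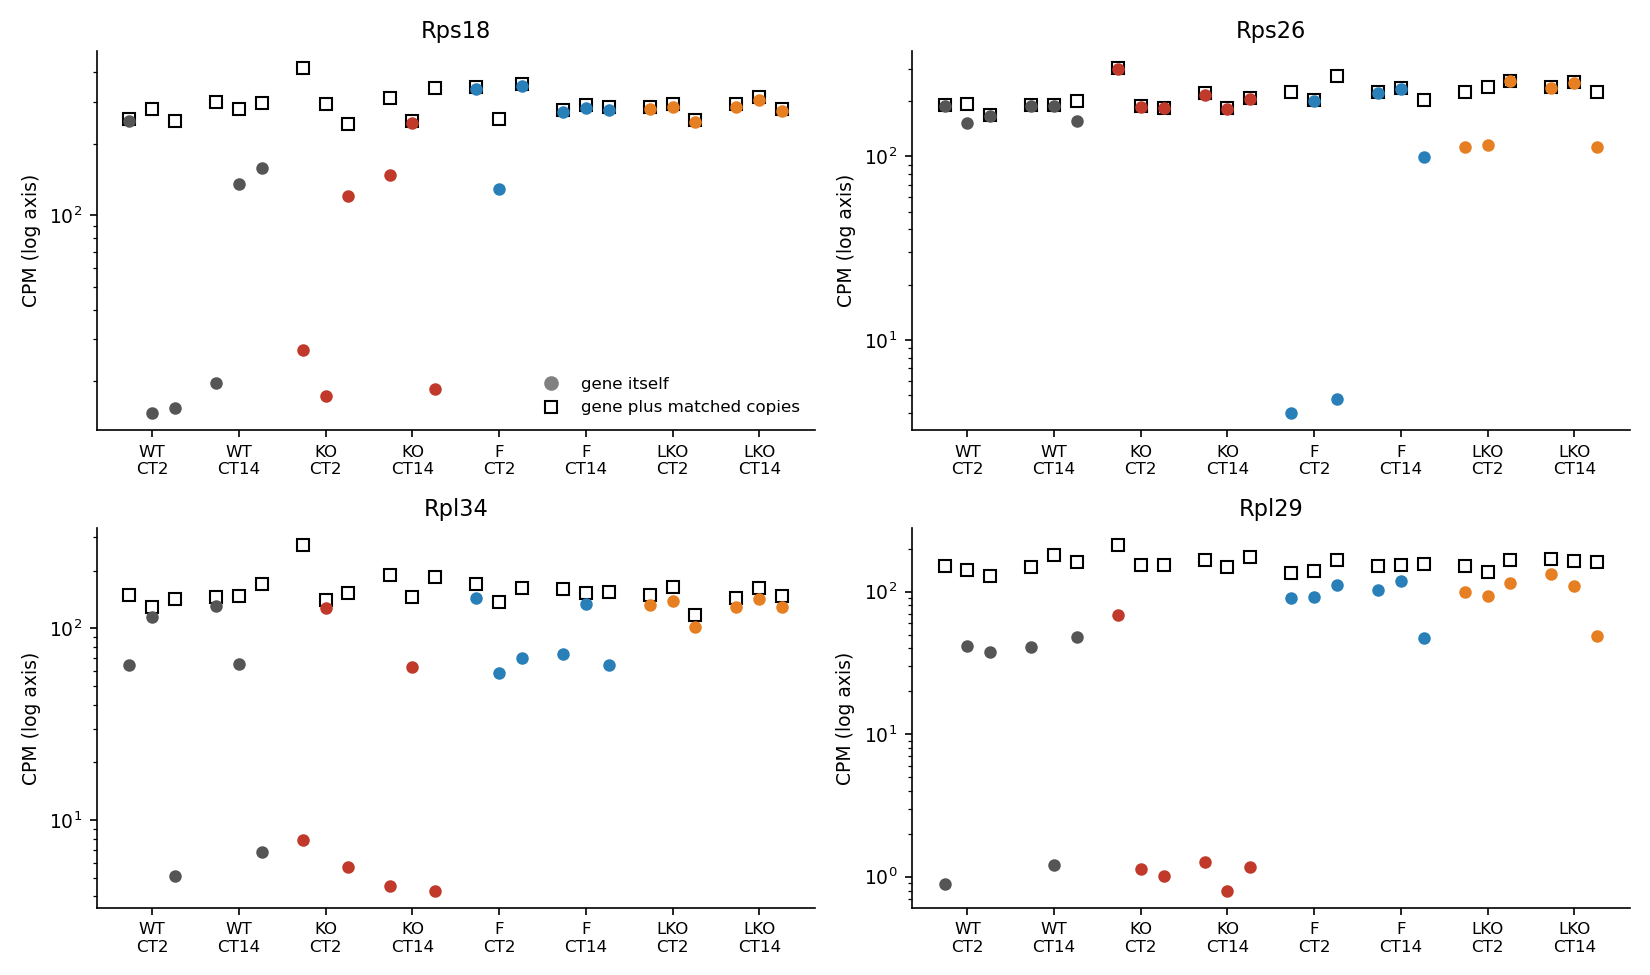
CPM (vertical log axis) of Rps18, Rps26, Rpl34 and Rpl29 in each of 24 libraries, ordered by group (horizontal axis), for the gene itself (filled circles) and with its matched copies added (open squares). The circles fall at separate levels, as for Rps26 at 3.99 and 199 CPM within F at CT2, while the squares of Rpl29 stay between 129 and 211 CPM.

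The summed level of the 79 genes was higher in both knockouts than in their controls on the TPM scale. It was 26816, 26582 and 25291 TPM in WT at CT2 and 27922, 24733 and 27339 TPM in WT at CT14. In KO it was 40469, 33066 and 32036 TPM at CT2 and 34767, 34253 and 32218 TPM at CT14, so that all 6 KO libraries lay above all 6 WT libraries. F held 33993, 26668 and 37826 TPM at CT2 and 28115, 33932 and 29910 TPM at CT14. LKO held 38286, 41550 and 35209 TPM at CT2 and 42516, 40400 and 38744 TPM at CT14, and its lowest library lay below the highest of F. The log2 ratio of group means was 0.38 for KO against WT, 0.31 for LKO against F, and 0.26 for F against WT, the controls. In these bulk samples, fewer cells of a type and less RNA per cell cannot be told apart.

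A part of the TPM difference in KO, and the larger part in LKO, was shared by genes at large. Tested as log2(TPM + 1) with limma, the median member was 0.39 higher in KO than in WT, but the median of all genes tested was also 0.15 higher; for LKO against F these medians were 0.30 and 0.18. Relative to all genes, the members were 0.25 and 0.12 higher. By this test, on values that carry the shared shift, 33 of the 79 genes were called higher in KO, beside 10.9% of all genes, and 20 in LKO, beside 12.7%. Alb fell in the same libraries, as given above, and its part in the shift was not tested. On the count scale after TMM scaling, where the median of all genes was 0.01 for KO against WT and -0.01 for LKO against F, the log2 ratio of summed CPM was 0.22 and 0.11. The comparisons below use this scale.

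**Figure D3:**
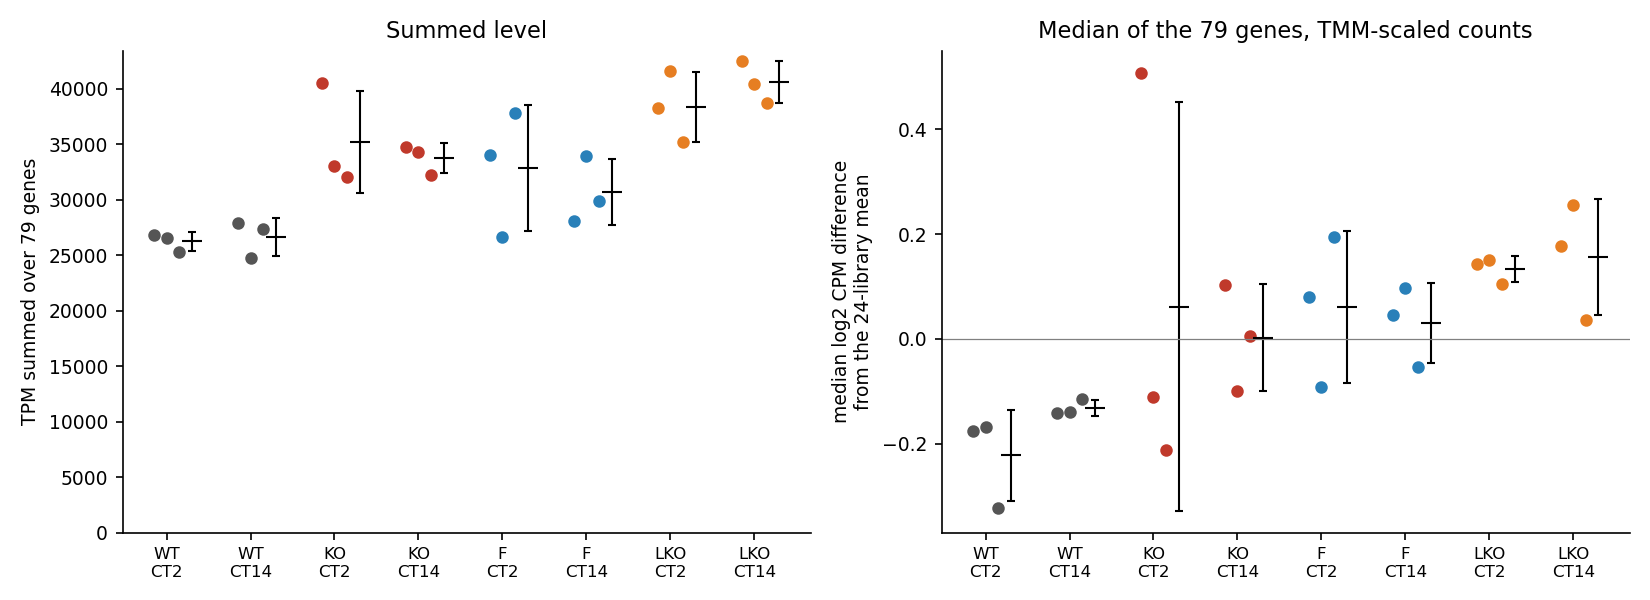
Left, TPM summed over the 79 genes in each library; right, the median over the 79 genes of the log2 CPM difference from the mean of 24 libraries. Points are libraries by group (horizontal axis), and black bars give the mean ± SD of 3 libraries. KO CT2 replicate 1 stands at 0.51 in the right panel, against -0.11 and -0.21 in the other two libraries of its group.

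The comparison of KO with WT asks whether the loss of Bmal1 in all tissues changed these transcripts. Over both times, 72 of the 79 genes had a log2 fold change above 0 (50.9% of all 20514 genes tested did), with a median of 0.24. Only Rps7 and Rpl12 passed the test, both higher, by edgeR's quasi-likelihood test with Benjamini-Hochberg adjustment over all genes. This is 2 of 79, beside 3.11% of all genes called higher. At an unadjusted p under 0.05, 27 of the 79 genes were higher, beside 9.86% of all genes. The median was 0.19 in the small and 0.26 in the large subunit.

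Rps7, a protein of the small subunit that can also bind Mdm2, read 178, 179 and 166 CPM in WT at CT2, and at CT14 191, 223 and 193 CPM. KO read 363, 232 and 238 CPM at CT2, and at CT14 268, 230 and 207 CPM. All KO libraries at CT2 lay above all WT libraries, while the lowest at CT14 lay below the highest of WT. The log2 fold change over both times was 0.44 ± 0.11 (SE, 6 libraries against 6; edgeR adjusted p = 0.0247) and 0.40 with copies (adjusted p = 0.0327). Rpl12, at the base of the stalk, read 201, 170 and 177 CPM in WT at CT2, and at CT14 209, 206 and 207 CPM. KO read 396, 223 and 223 CPM at CT2, and at CT14 238, 257 and 245 CPM, so that the genotypes did not overlap. Its log2 fold change was 0.44 ± 0.13 (edgeR adjusted p = 0.0445) and 0.43 with copies (adjusted p = 0.0497).

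Rps6, the substrate of S6 kinase through which mTORC1 activity is often read, was the only other gene whose 6 KO libraries all lay above all 6 WT libraries; such separation held for 1.52% of all genes. It read 277 to 318 CPM in WT at CT2, 312 to 330 CPM in WT at CT14, and 332 to 499 CPM in KO. Its log2 fold change of 0.30 ± 0.10 did not pass edgeR's test (adjusted p = 0.0993), nor did that of Rpl13a, at 0.41 (adjusted p = 0.0763). DESeq2 called both (adjusted p = 0.0376 and 0.0409) with Rps7 and Rpl12, 4 higher beside 4.91% of all genes. It also called 1 lower, Rpl29 at -2.50, whose own counts follow the copies, beside 3.63% of all genes.

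KO CT2 replicate 1 carried a large part of these differences. It held the highest value of the 6 KO libraries for Rps7, Rpl12 and Rps6, and its median deviation over the 79 genes was 0.51, against -0.21 to 0.10 in the other 5. This is also the library with Ddx3y at 3.50 TPM. Without it, the median fell to 0.10, 61 of 79 genes lay above 0, and 5 were higher at an unadjusted p under 0.05. Rps7 was then at 0.32 and Rpl12 at 0.27, and neither passed the test (edgeR). The 1 member called without it was Rpl29, lower, beside 1.94% of all genes; its own counts follow the copies. Without all 3 libraries of low Ddx3y and with copies added, a setting chosen after seeing the data, the median was again 0.10 and 66 genes lay above 0. The spread between replicates was then smaller, and 6 genes passed edgeR's test as higher, beside 4.75% of all genes: Rpl13a (0.27), Rps7 (0.29), Rpl3 (0.22), Rpl12 (0.27), Rps10 (0.22) and Rpl17 (0.24). Other single libraries also decided these calls. Of the 24 fits that leave out 1 library, Rps7 was not called in 5, without WT CT2 replicate 3, WT CT14 replicate 1 or 3, KO CT2 replicate 1 or KO CT14 replicate 1 (adjusted p 0.0588 to 0.0733 in edgeR). Rpl12 was not called in 17 (0.0505 to 0.11). It passed in the other 7, without F CT2 replicate 1, 2 or 3, F CT14 replicate 2, KO CT2 replicate 2 or 3, or LKO CT2 replicate 3.

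**Figure D4:**
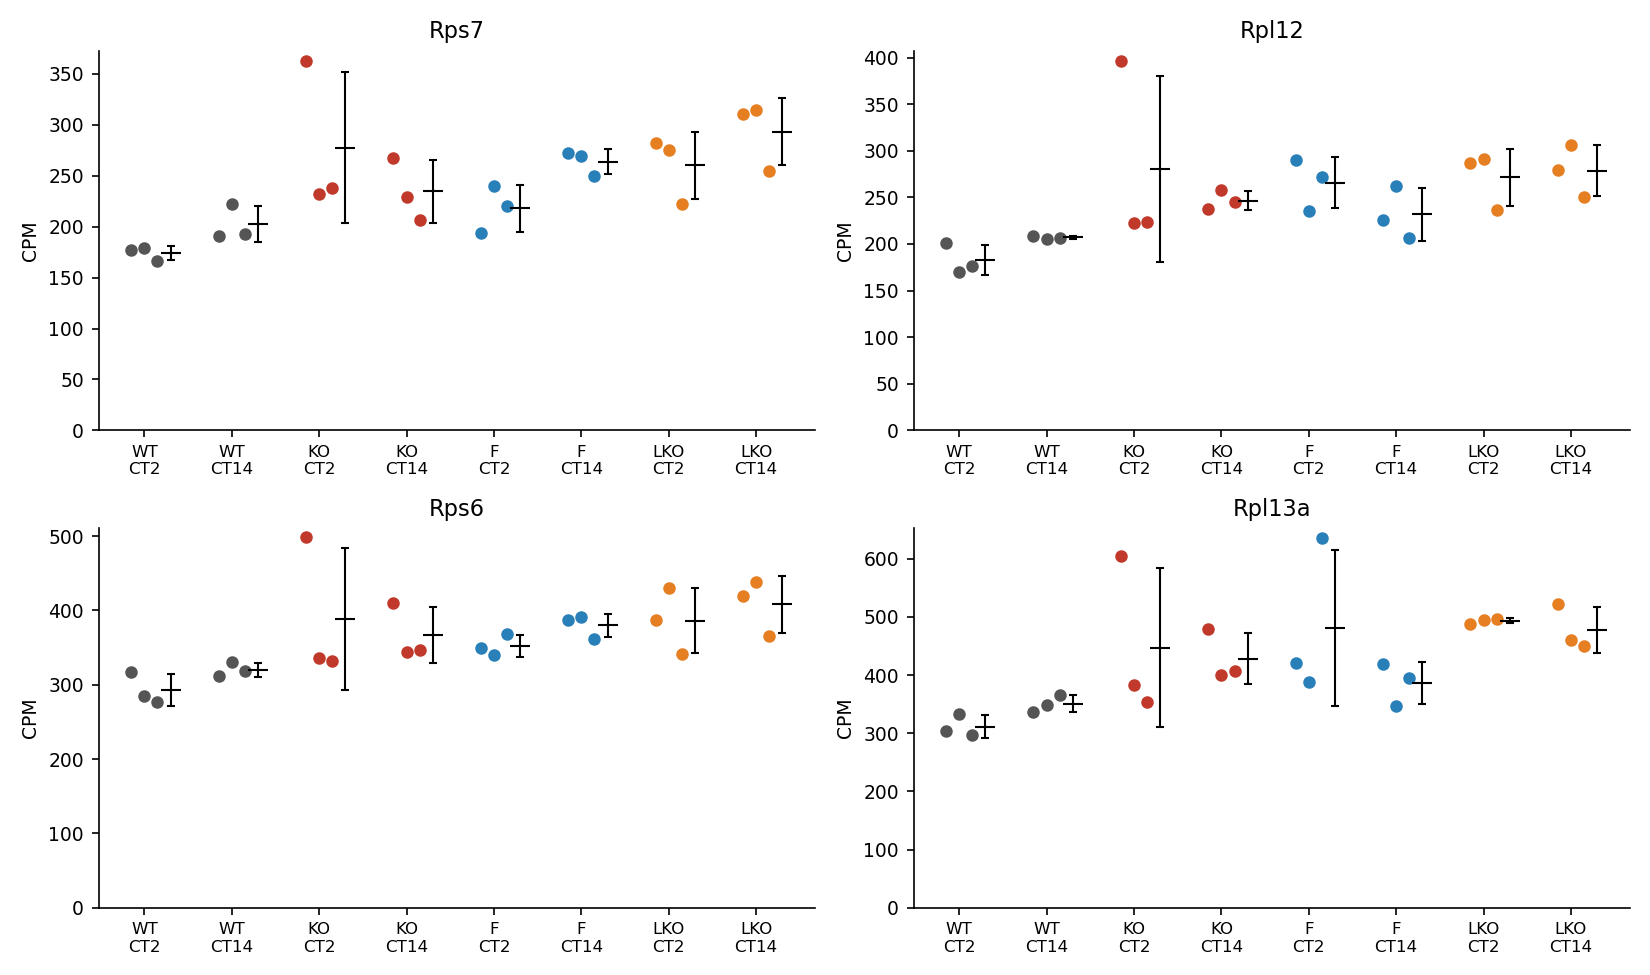
CPM of Rps7, Rpl12, Rps6 and Rpl13a (vertical axes from 0) in each library by group (horizontal axis), with the mean ± SD of 3 libraries as black bars. The topmost point of KO at CT2 is replicate 1 in each panel, at 363 CPM for Rps7 and 396 CPM for Rpl12.

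By time point, the KO difference had a median of 0.30 at CT2, with 71 genes above 0 (49.9% of all genes were), and of 0.13 at CT14, with 67 above 0 (50.4% of all genes). At CT2 none passed edgeR's test, beside 0.327% of all genes called higher, and 26 were higher at an unadjusted p under 0.05, beside 4.72% of all genes. DESeq2 called 2 there, Rps7 and Rpl12, beside 1% of all genes. Without KO CT2 replicate 1 the CT2 median was 0.07. At CT14 only Rpl21 passed edgeR's test, higher (3.15% of all genes were); DESeq2 called Rpl21 higher and Rpl29 lower there, beside 5% and 3.39% of all genes. Non-overlapping higher values were found for 19 genes at CT2 and 21 at CT14, beside 7.1% and 13.4% of all genes. At CT14 the erythroid markers, 6 genes with none at 0, summed to 1949 to 2564 TPM in KO and 1020 to 1291 TPM in WT. Among them Alas2 went against the sum and was called lower in KO at CT14 (-1.155, edgeR adjusted p = 0.0246). At CT2 the sums of these markers overlapped, at 830 to 3535 TPM and 928 to 1847 TPM. Their part in the result was not tested.

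Rpl21, of the large subunit, read 9.09, 6.64 and 1.92 CPM in WT and 25.8, 21.3 and 19.1 CPM in KO at CT14, with a log2 fold change of 1.91 ± 0.50 (edgeR adjusted p = 0.0274). It was not called without WT CT14 replicate 2 or 3, or KO CT14 replicate 1 or 2. The gene itself held only 0.764% to 13.2% of the counts of gene and copies in all 24 libraries. With copies, WT read 180 to 184 CPM and KO 211, 175 and 213 CPM at CT14, so that the groups overlapped and the log2 fold change was 0.14 (adjusted p = 0.836). The other extreme members also moved towards the rest when copies were added. Over both times, Rpl35a went from 0.78 to 0.07, Rpl7a from 0.55 to 0.25, Rpl34 from -0.95 to 0.29 and Rpl29 from -2.50 to 0.14, and the whole range from -2.50 to 0.78 narrowed to -0.03 to 0.46. The median hardly changed, from 0.24 to 0.23, with 77 genes above 0.

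Rps27, a zinc-finger protein of the small subunit, kept its own pattern with copies added. It read 23.3, 27.2 and 28.8 CPM in WT at CT2, and 76.3, 38.9 and 39.3 CPM in KO. At CT14 it read 37.5, 38.6 and 29.5 CPM in WT, and 42.0, 15.2 and 21.7 CPM in KO. KO was thus higher without overlap at CT2, and 2 of 3 KO libraries were lower than all WT libraries at CT14. The log2 fold changes were 0.96 ± 0.29 at CT2 (edgeR adjusted p = 0.222) and -0.42 ± 0.29 at CT14 (adjusted p = 0.517), neither past the test. Its paralogue Rps27l, a p53 target, was at 0.10 and -0.17.

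The members listed here, known for a role outside the ribosome, for the stalk or as paralogues, ranged from 0.04 to 0.45 over both times. The paralogue Rps27l, given above by time and negative at CT14, is not among them. Rpl5 (0.29) and Rpl11 (0.25) bind the 5S rRNA and, when free, inhibit Mdm2. The stalk proteins Rplp0, Rplp1 and Rplp2 were at 0.16, 0.22 and 0.04, and Rplp0 at 0.14 with copies. Rpl10 was at 0.22, and Rps27a, made as a fusion with ubiquitin, at 0.13 and at 0.24 with copies. The paralogues Rpl22l1 and Rpl7l1 were at 0.45 ± 0.26 and 0.07. None of these passed edgeR's test, with adjusted p from 0.211 for Rpl11 upwards.

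The comparison of LKO with F asks the same of the loss of Bmal1 in hepatocytes. The median difference over both times was 0.10 and 67 of 79 genes lay above 0 (49.1% of all genes did). None passed edgeR's test, beside 1.7% of all genes called higher and 1.43% lower; 2 were higher at an unadjusted p under 0.05, beside 6.36% of all genes, and DESeq2 also called none, beside 2.56% of all genes. The medians were 0.03 at CT2, with 46 genes above 0 (50.9% of all genes) and 0.273% of all genes called higher, and 0.13 at CT14, with 65 above 0 (48.2% of all genes) and 0.814% of all genes called higher. None of the 79 passed edgeR's or DESeq2's test at either time, and 2 and 1 were higher at an unadjusted p under 0.05 in edgeR, beside 4.63% and 4.92% of all genes. Higher values without overlap were found for 3 genes at CT2 and 21 at CT14, beside 6.1% and 11.9% of all genes.

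Single libraries moved these small medians. Without F CT2 replicate 2 the median over both times was 0.04, and 0.15 without F CT2 replicate 3. At CT2 it was -0.05 and 0.15 without these 2 libraries. The summed level of 10 lymphocyte markers, none at 0, was higher without overlap at CT2, at 32.7 to 47.2 TPM in LKO and 13.0 to 21.5 TPM in F. At CT14 the sums overlapped, at 15.4 to 37.6 TPM and 10.01 to 20.8 TPM. Of the 10 markers, only 2 lay above 0 over both times, so the sums do not describe the list as a whole. By edgeR's test 1 of the 2, Ighm, an immunoglobulin heavy chain, was called higher (1.52, adjusted p = 0.012). Their part in the result was not tested.

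Rps7 read 194, 240 and 221 CPM in F at CT2, and at CT14 272, 270 and 250 CPM. LKO read 283, 276 and 223 CPM at CT2, and at CT14 311, 315 and 255 CPM, and the genotypes overlapped at both times. The log2 fold changes were 0.20 ± 0.11 for Rps7 (0.13 with copies) and 0.15 for Rpl12, and 0.12 for Rps6, with edgeR adjusted p of 0.51, 0.764 and 0.783. Rpl22l1 was at 0.56 ± 0.26 over both times (adjusted p = 0.355), and with copies at 0.54. It read 16.4, 14.2 and 5.91 CPM in LKO at CT2, and at CT14 11, 17.4 and 15.2 CPM. In F it read 9.43, 12.5 and 4.75 CPM at CT2, and at CT14 10.01, 8.30 and 9.19 CPM. LKO thus lay above F without overlap at CT14, while at CT2 the genotypes overlapped. Between libraries of the same number at CT2, LKO was higher for all 3 numbers, but the labels do not pair these libraries. The low CT2 values of both genotypes are those of replicate 3, the libraries with low Ddx3y.

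Without the 3 libraries of low Ddx3y and with copies added, the median for LKO against F was 0.13 with 73 genes above 0. Under this setting, chosen after seeing the data, 7 genes passed edgeR's test, all higher, beside 2.15% of all genes: Rpl22l1 (0.56 ± 0.14), Rpl14 (0.38 ± 0.08), Rpl28 (0.31), Rpl13a (0.30), Rpl32 (0.28), Rps13 (0.28) and Rpl17 (0.24). Rpl14 read 99, 119 and 147 CPM in F at CT2, and at CT14 145, 121 and 123 CPM, against 149, 158 and 141 CPM and 159, 172 and 139 CPM in LKO. Its highest F value at CT2 is replicate 3. With all 24 libraries edgeR called none of the 7. Without the 3 libraries but with no copies added it called 5 of them, all but Rps13 and Rpl17, beside 2.08% of all genes. These 5 were also among the 20 that limma called on the TPM scale with all libraries.

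Single extremes of this comparison again followed the copies. Rps26 was highest over both times, at 0.67, and at 0.08 with copies. Rpl17 ran from -0.52 at CT2 to 0.69 at CT14, and read 0.19 and 0.18 with copies. The lowest were Rpl30 at -0.24 (-0.11 with copies) and Rps29 at -0.16. With copies, all 79 genes lay between -0.15 and 0.54.

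Whether the KO difference and the LKO difference were unequal was tested gene by gene, and no member passed. The median of the KO difference minus the LKO difference was 0.13, with 67 genes above 0 (52.2% of all genes). By edgeR's test, 0.0439% of all genes were called higher. At an unadjusted p under 0.05 none of the members was higher, beside 4.75% of all genes. The lowest adjusted p was 0.695. Without KO CT2 replicate 1 this median was -0.004, with 39 genes above 0. The sign of the median thus rested on that library.

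**Figure D5:**
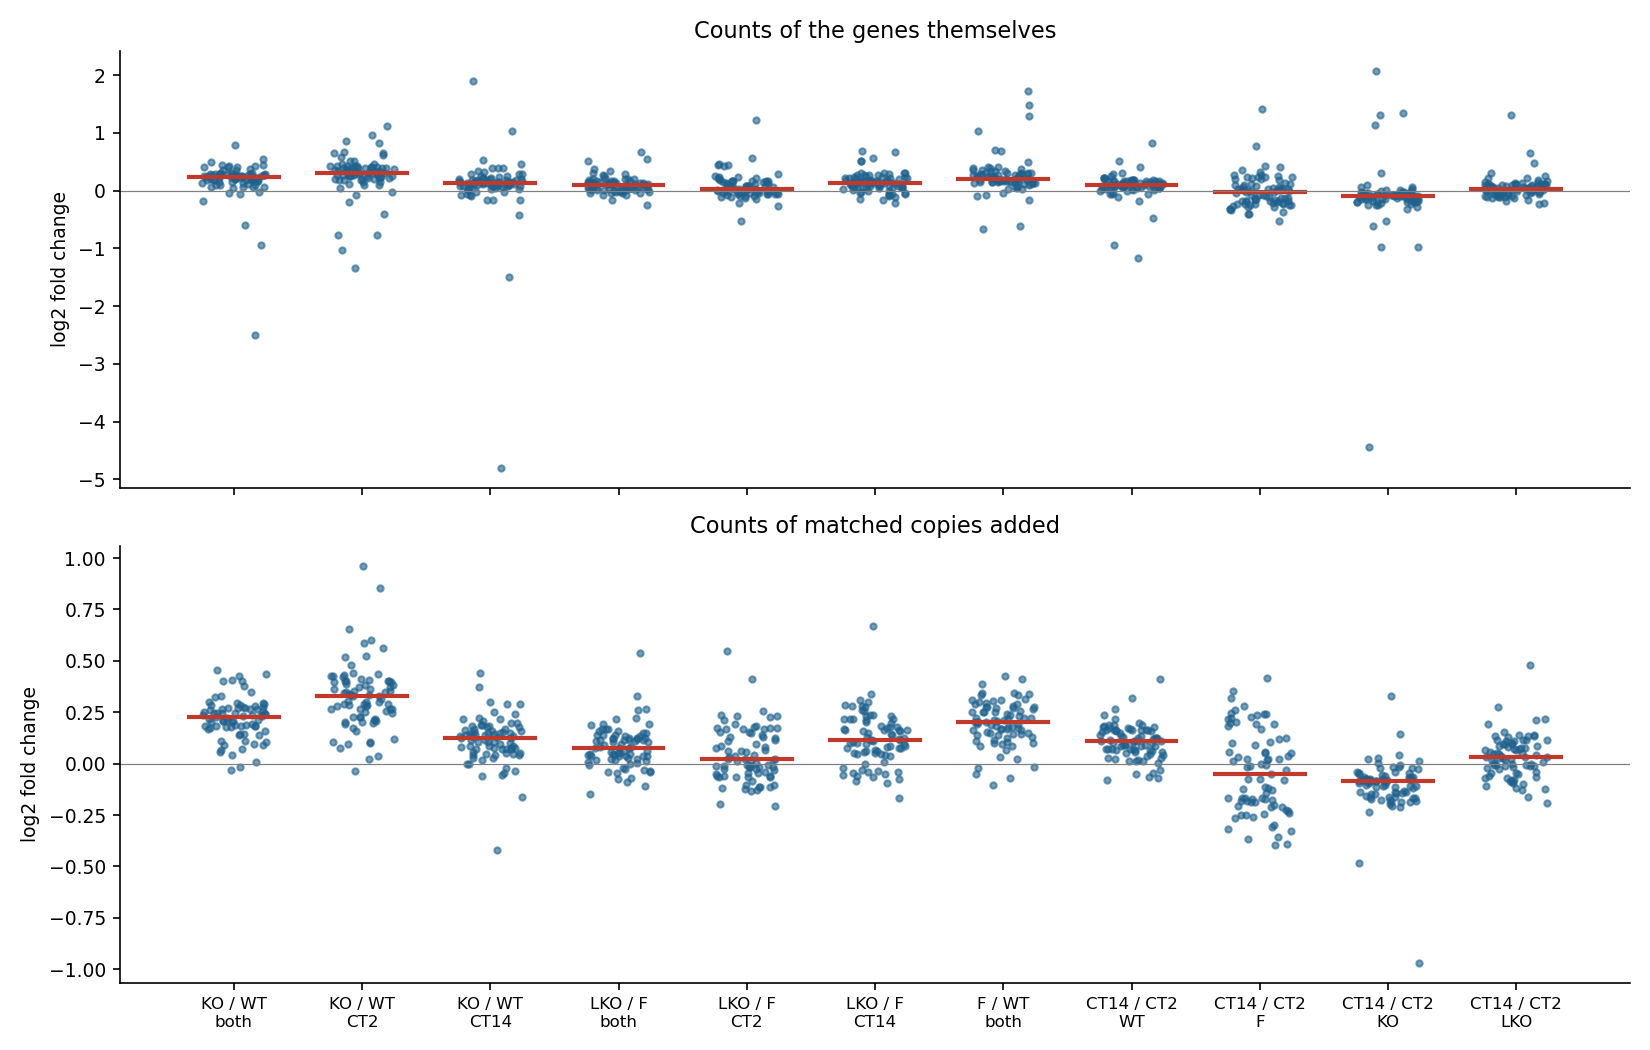
Log2 fold changes (vertical axes, which differ in range between the panels) of the 79 genes in each comparison (horizontal axis); every point is 1 gene and the bar is their median. The upper panel uses the counts of the genes themselves, as for Rpl29 at -4.80 in KO against WT at CT14; in the lower panel the counts of matched copies are added and the KO against WT values over both times lie between -0.03 and 0.46.

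Between the 2 time points no member passed edgeR's test in any genotype. In WT, CT14 was above CT2 for 68 of 79 genes (49.5% of all genes) with a median of 0.10; 24 were higher without overlap, beside 10.5% of all genes. In F, KO and LKO 8, 1 and 2 were, beside 9.97%, 4.09% and 10.4% of all genes. In WT none passed edgeR's test, 1 was higher at an unadjusted p under 0.05 (5.36% of all genes were), and 1.1% of all genes were called higher. In F the median was -0.03 with 36 above 0 (52.6% of all genes), and in LKO 0.03 with 49 above 0 (48.7% of all genes). Both signs turned when 1 library was left out, to 0.01 without F CT2 replicate 3 and -0.02 without LKO CT14 replicate 2. None passed edgeR's test in either, beside 1.33% and 0.444% of all genes called higher. At an unadjusted p under 0.05, 1 was higher in F and 2 in LKO, beside 7.15% and 5.84% of all genes. In KO the median was -0.09 and 12 genes lay above 0, beside 49.6% of all genes. None of them passed there, and edgeR called none of all genes either (0%); 2 were higher at an unadjusted p under 0.05, beside 2.1% of all genes, and DESeq2 called 1 member, Rpl21, beside 0.127% of all genes.

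The sign in KO was set by 1 library. Without KO CT2 replicate 1 the median of CT14 against CT2 in KO was 0.15 and 72 of 79 genes lay above 0. The difference of the time effects of KO and WT moved from a median of -0.20, with 9 genes above 0 (50.4% of all genes), to 0.05 with 51 above 0. Its only call was Rpl21, at 3.24 ± 0.70 (edgeR adjusted p = 0.0289; 0.502% of all genes were called higher), which was -0.19 with copies (adjusted p = 0.969). It was not called without WT CT2 replicate 2, WT CT14 replicate 2, KO CT2 replicate 1 or 2, or KO CT14 replicate 1. Rps27 was at -1.38 ± 0.41 with and without copies, which did not pass (adjusted p = 0.173). For LKO and F, the difference of the time effects had a median of 0.08 (-0.02 without F CT2 replicate 3), and none passed edgeR's test, beside 0.0536% of all genes called higher. At an unadjusted p under 0.05 none was higher either, beside 2.92% of all genes.

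The 2 controls also differed from each other. F was above WT for 73 of 79 genes (49.8% of all genes) with a median of 0.21, and 25 were higher at an unadjusted p under 0.05, beside 7.68% of all genes. This comparison shares the WT libraries with that of KO, whose median was 0.24. Only Rpl3, which forms part of the peptidyl transferase centre, passed edgeR's test, beside 1.63% of all genes. It read 227, 154 and 278 CPM in WT at CT2, and at CT14 240, 250 and 167 CPM, and 393, 352 and 403 CPM in F at CT2, and at CT14 310, 339 and 329 CPM. F lay above WT in every library, and the log2 fold change was 0.69 ± 0.17 (adjusted p = 0.0318). In 8 of the 24 fits that leave out 1 library it was not called, those without WT CT2 replicate 1 or 2, WT CT14 replicate 1, 2 or 3, F CT2 replicate 3, or F CT14 replicate 2 or 3. With copies it was 0.18 (adjusted p = 0.495). DESeq2 called 4 higher in F, Rpl3, Rps7, Rpl21 and Rpl35a, beside 3.12% of all genes. Rpl29 and Rps18, at 1.72 and 1.48, were at -0.01 and 0.13 with copies.

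Other tissues' transcripts moved along with this comparison. Of 13 spermatid markers 11 were called higher in F than in WT, and 10 of the 13 were at 0 in WT at CT14. Their part in the result was not tested. Of the pancreatic markers 2 were called higher in F. Without the 2 F libraries rich in them the median of the members was 0.21, the same as with them, and Rpl3 was no longer called (0.66, adjusted p = 0.0978). Without the 3 libraries of low Ddx3y and with copies added, the median was 0.18, 72 genes lay above 0 and 7 passed edgeR's test as higher (1.74% of all genes): Rpl4, Rpl23a, Rps7, Rpl12, Rps24, Rpl23 and Rpl21, at 0.27 to 0.32. KO and LKO were each set against their own control.

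Genes around the ribosome were read from the same fit. The translation factors with TOP mRNAs, with a few other TOP mRNAs in the list, had medians close to those of the members. They include the elongation factors Eef1a1 and Eef2. Of the 18, 17 lay above 0 in KO, with a median of 0.23, and 17 in LKO, with a median of 0.17. None of the 18 passed edgeR's test in KO and 1 did in LKO, Eif4b (0.41 ± 0.10, adjusted p = 0.0204), a helicase cofactor of initiation. Without KO CT2 replicate 1 the KO median of this list was 0.14. The mitochondrial ribosomal protein genes lay at 0.05 in KO, with 51 of 78 above 0, and at 0.04 in LKO, with 52 of 78; none was called in either.

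Ribosome biogenesis factors, which process rRNA and assemble subunits in the nucleolus, held no call by genotype over both times. Their median was 0.02 in KO and 0.05 in LKO, and none of 69 was called in either. By time in LKO, 64 of 69 lay above 0 at CT14 against CT2, beside 48.7% of all genes, with a median of 0.41, and 5 passed edgeR's test as higher: Nolc1 (1.51), Rrp12 (1.28), Wdr12 (0.91), Heatr1 (0.72) and Utp20 (0.69), beside 0.444% of all genes. In F, 49 of 69 lay above 0, beside 52.6% of all genes, with a median of 0.26, and Utp20 passed (0.64). None of the 69 was called by time in WT or KO. Their summed TPM had a median of 1268 at CT2 and 1589 at CT14 in LKO, but of 1252 and 1222 in F. In WT these medians were 1162 and 1170, and in KO 1461 and 1346. Polr1a, the largest subunit of RNA polymerase I, was higher at CT14 in F (0.96, adjusted p = 0.00979) and LKO (0.88, adjusted p = 0.0394). The members themselves had medians of -0.03 and 0.03 in these comparisons. Whether the time effect on the biogenesis factors differed between LKO and F was tested gene by gene, and none of 69 passed.

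Regulators of TOP mRNA translation changed singly. Ddit4, an inhibitor of mTORC1, was higher in KO (1.16 ± 0.15, edgeR adjusted p = 6.4e-05), at CT2 (1.47) and at CT14 (0.86), and in LKO at CT14 (0.93, adjusted p = 0.0227). Eif4ebp3, a repressor of the cap-binding protein eIF4E, rose by 3.0 on the log2 scale from CT2 to CT14 in WT, and its time effect was -3.02 in KO relative to WT (adjusted p = 0.00804). No other of the 28 genes of this list passed in KO against WT over both times. Cdkn1a, the p53 target p21, was higher by 2.22 in KO and 2.89 in LKO, and Mycn was at -1.63 in LKO (adjusted p = 0.0122), in a list of 13 regulators with no other call over both times. Mdm2 and Trp53, also in that list, were not called.

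Beside these genes, the 13 mitochondrially encoded genes had medians of -0.40 in KO (12 of 13 below 0) and -0.39 in LKO on the count scale, with none called. On the TPM scale the summed levels overlapped between knockout and control at each time, so no direction is read from them. At CT2 they were 34050 to 52700 TPM in KO and 45980 to 61610 TPM in WT. LKO and F held 27000 to 57300 TPM and 19660 to 74020 TPM there. At CT14 they were 34210 to 50060 TPM in KO and 49340 to 58390 TPM in WT. LKO and F held 41990 to 55680 TPM and 54000 to 65120 TPM there. Counts of these 13 genes made up 1.35% to 4.87% of a library.

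The genes whose TPM followed the median of the 79 most closely over the 24 libraries were mostly copies of members. By Pearson's r of log2 TPM, the nearest were Gm6136 (0.916), Nphs1 (0.911), Echdc2 (0.907), Rps13-ps4 (0.903), Rps12-ps9 (0.902), Gm49594 (0.9), Rpl10-ps3 (0.899) and Rps12-ps4 (0.897). Of these 8, 6 were matched copies, whose sequence is close to that of a member. The points share the libraries and their scaling, so the values only describe.

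The promoters of the members held runs of pyrimidines more often than promoters of all genes. RefSeq promoters (GRCm38.p6) were matched for 59 of the 79 members, and 27025 promoters of all genes served as the background. In the 50 bases from 20 before to 30 after the annotated start, a run of at least 8 pyrimidines stood in 52.5% of members and 18.8% of all promoters. CTCTTT was found there on the sense strand in 16.9% and 1.8%, and CTTTTC in 6.8% and 1.7%. These searches could overlap with the pyrimidine run and with each other. TATAAA was found on the sense strand of the same 50 bases in 3 of the 59 members (5.1%) and 0.9% of all promoters. Bases further upstream were not searched for it. The windows below, of 30 bases on the gene's strand within those 50, show the run in capitals for genes that the results above describe.
Rps6: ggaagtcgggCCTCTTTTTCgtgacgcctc
Rps7: ccacctacttccgctgtccccaCCTCTTTT
Rpl12: gagcaggatccgTCTTTTCggctttcggct
Rpl11: acggggccggaagTCTCCCTCTCTCTTCCT
Rpl7a: cacaaTTCCCTCTTCTTTCTTTCTCCagca
Rpl28: gcctctcgtgTCTCTCTTTCCgtctccggc
Rps27: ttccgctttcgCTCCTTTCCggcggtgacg
Rpl22: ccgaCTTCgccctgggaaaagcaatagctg
Rpl22l1: cgcaagcccgTTCTCTTCCCacggctgcag

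They lie at chr4:86857349-86857378 (minus strand) for Rps6, chr12:28635924-28635953 (minus) for Rps7, chr2:32961701-32961730 (plus) for Rpl12, chr4:136053364-136053393 (minus) for Rpl11 and chr2:26910788-26910817 (plus) for Rpl7a. Those of Rpl28, Rps27, Rpl22 and Rpl22l1 lie at chr7:4792952-4792981 (plus), chr3:90213632-90213661 (minus), chr4:152325706-152325735 (plus) and chr3:28805499-28805528 (plus). The longest run was 10 bases in Rps6, 8 in Rps7 and 7 in Rpl12, the genes that were highest without overlap or passed the test in KO, and 21 in Rpl7a, which did not. Rpl22 had a longest run of 4 bases and its paralogue Rpl22l1 one of 10.

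Over the whole 300 bases and both strands, CCGGAAG, an ETS and GABP type motif, was found in 39.0% of the 59 members and 9.1% of all promoters, and GGGCGG, bound by Sp1, in 61.0% and 35.9%. CACGTG, the E-box that BMAL1 and CLOCK bind, was found in 8.5% of the members, 5 of 59, and in 7.2% of all promoters. A match describes these letters in this window only.

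The authors' deposited tables of their own comparisons called few members, and not always the same ones. In the authors' deposited table of all KO against all WT libraries, 3 members were higher at an adjusted p under 0.05, Rps7, Rpl13a and Rps10, and 0 lower (3.93% of its genes were higher), with a median of 0.25. The authors' deposited table for CT2 called Rps27 higher in KO (0.97, beside 1.12% of its genes). The authors' deposited table for CT14 called Rpl21 and Rps12 higher and Rpl29 lower (6.42% and 5.92%). The authors' deposited table of all LKO against all F libraries called none of the 79, beside 1.62% of its genes higher, with a median of 0.10. At CT14 the authors' deposited table called Rpl22l1 higher in LKO than in F (0.67, beside 4.89% of its genes), and at CT2 none. For time, the authors' deposited tables called 1 member higher at CT14 in WT (Rpl7a, 3.91%), KO (Rpl21, 0.156%) and LKO (Rpl17, 2.08%) each, and none in F.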

How the data were processed

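Per the submitters' processing notes, the tools were StringTie 1.3.1, HISAT2 2.2.1 and fastp 0.23.2, and the build was GRCm39; annotation release and strand setting were not given in the sources used here. Deposited by the authors were estimated counts and TPM per gene, and tables of their own comparisons with log2 fold changes and p-values. Estimated counts were rounded. Genes were kept by edgeR's filterByExpr (minimum count 10, minimum total 15), which left 20514, all 79 members among them. The main test was edgeR 4.0.16 (TMM, quasi-likelihood F-test, 8 group means, 24 libraries), with Benjamini-Hochberg adjusted p under 0.05 as a call. DESeq2 1.42.0 and limma 3.58.1 on log2(TPM + 1) were alternatives, run in R 4.3.3. The edgeR fit was tested on simulated data for KO against WT over both times, with 200 of 20514 genes changed. It recovered 41% of those changed by 1 on the log2 scale and 65% of those changed by 2, with 3 false calls. Changes as small as the medians of the members were not simulated, so a gene without a call may still have changed. Copies were matched with blastn 2.17.0 against GENCODE coding sequences of another build, for which no coordinates are given. Members named were those called, the 5 highest and lowest, the 2 highest and lowest in each comparison, paralogues and members of known roles; from other lists, genes called. Members met the rule on symbol and TPM, with no group difference used, but this family and the lists were picked with earlier results of these data known. Same-numbered libraries of F and LKO at CT2 deviated together (r 0.18, 0.143 and 0.312; the labels give no reason), and those of the other 27 group pairs did not all do so. Without a genome of the deposited build, positions are given only for RefSeq promoters.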

Additional observations from a re-analysis of the deposited data

Results flagged for a closer look

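Rpl21 was the only member whose time effect differed between KO and WT by the test of the difference itself, at 3.24 on the log2 scale (edgeR adjusted p = 0.0289). The gene itself read 9.36, 23.4 and 6.84 CPM in WT at CT2 and 9.09, 6.64 and 1.92 CPM at CT14. KO read 2.33, 6.41 and 6.93 CPM at CT2, and at CT14 25.8, 21.3 and 19.1 CPM, so that KO rose without overlap while the WT groups overlapped. With the counts of matched copies added, KO read 306, 191 and 179 CPM at CT2, and at CT14 211, 175 and 213 CPM, and WT 175 to 186 CPM. The value was then -0.19 (adjusted p = 0.969).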

How the results depend on the processing

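Numbers are counts of called members unless stated. Most are given without the share of all genes called under the same setting, so they describe only how calls move between settings. With limma on log2(TPM + 1), 10.9% of all genes were called higher for KO against WT and 12.7% for LKO against F, over both times. DESeq2 gave 5 for KO against WT over both times (Rpl29 lower among them), 2 at CT2 and 2 at CT14 (1 of them Rpl29, lower), 1 for time in KO and 4 for F against WT. Without the filter on low counts there were 1 for KO against WT over both times and 0 for the time effect of KO against WT; fitted on only the groups compared, 0, 0 at CT14 and 0 for that time effect. On log2(TPM + 1) or log2(TPM + 0.1), limma gave 33 for KO against WT, 7 at CT2 and 2 at CT14, 20 for LKO against F, 1 at CT2 and 8 at CT14, and 1 for time in F; without a filter 24, 4, 15, 1 and 6, and 0 for the KO time effect and F against WT. The median of the members at CT14 was then 0.33 for KO and 0.37 for LKO. Summed CPM gave log2 ratios of 0.22 for KO and 0.11 for LKO.

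Without the 2 F libraries with pancreatic transcripts there were 4 for KO against WT, 0 for its time effect and 0 for F against WT; without the 2 KO libraries with spermatid transcripts, 2 at CT2, 0 at CT14 and 2 for F against WT. Without the 3 low-Ddx3y libraries, chosen after seeing the data, there were 5 for KO against WT, 3 at CT14, 5 for LKO against F, 0 for the KO time effect and 9 for F against WT; with copies added as well, 6 for KO against WT, 7 for LKO against F, 1 at CT14, 0 for the time effect and 7 for F against WT. Copies added alone, also chosen after seeing the data, gave 0 at CT14, 0 for the time effect, where Rpl21 reversed to -0.19, and 0 for F against WT; pseudogenes matched by name gave 0 for the time effect. DESeq2 size factors and counts divided by 4 each gave 2 for F against WT. Leaving out 1 library at a time gave 0 to 4 for KO against WT, 0 to 1 at CT2, 0 to 2 at CT14, 0 to 1 for LKO against F and at CT2, for time in F, for both time effects and for KO against LKO, and 0 to 5 for F against WT; the other comparisons gave 0 throughout. Among the medians, leaving out KO CT2 replicate 1 turned time in KO, its time effect and KO against LKO, and no other library turned these. LKO against F at CT2 turned to -0.05 without F CT2 replicate 2, time in F to 0.01 without F CT2 replicate 1 or 3, time in LKO to -0.01 without LKO CT2 replicate 3 and -0.02 without LKO CT14 replicate 2, and the LKO time effect to -0.02 without F CT2 replicate 3.

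In 1 of 28 pairs of groups, F and LKO at CT2, all same-numbered libraries had correlated deviations over 0.1, and replicate 3 of both has low Ddx3y; with the replicate block that comparison had 0 calls and a median of 0.04. Over all groups 5 of 84 same-numbered pairs were over 0.1, and 7 of 24 libraries were closest to their own number. With the replicate block, F against WT had 2 calls and no other count left 1.5 times the one reported.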
